A study of Vitis vinifera with 16 samples.

Results

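Ovules of the grape variety Zhongpu No. 18 (ZP) were compared with ovules of Muscat Hamburg (MH) at day 35, counted from flowering. All 4 day 35 libraries entered, 2 of ZP and 2 of MH, out of 16 in the series, which also holds both varieties at days 45, 55 and 61. The study asks about lignin synthesis in the ovules of grapes that set seeds and of stenospermocarpic ones, in which the fertilised seed is arrested early. Which variety is seedless is not said in the labels; MH is known as a seeded table grape. Both groups are whole ovules, stored frozen with the skin retained, and no treatment is named for either. Of the 13411 genes in the deposited table, the 12637 with at least 1 FPKM in at least 2 of the 16 libraries were tested. The table holds fewer genes than the 25187 protein-coding genes of the RefSeq annotation, and how they were chosen is not given in the sources used here, so shares of called genes apply to this selection. FPKM is the number of fragments mapped to a gene, scaled to its length and to the size of the library. A level below is in FPKM for a single library unless stated otherwise, and a difference is ZP minus MH in log2(FPKM + 1) ± its standard error, so a positive value is higher in ZP. A gene is called higher or lower where limma's p, adjusted by Benjamini-Hochberg over the 12637 genes, is under 0.05. This scale understates the change of genes that are low in both groups.

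A grape seed grows from a fertilised ovule whose integuments become the seed coat, around an endosperm and an embryo. Embryos pass from a phase of division into maturation, in which regulators of the LEC1, ABI3 and FUS3 type switch on genes for storage proteins, oil bodies and tolerance of drying; these roles are best known from Arabidopsis. The outer seed coat makes tannins and a lignified cell layer, for which phenylalanine is turned into monolignols that laccases and peroxidases then join into lignin.

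The spread between the libraries of a group was small: the median standard deviation of a gene was 0.0493 in ZP and 0.114 in MH, in log2(FPKM + 1). Depth, estimated from the steps between low FPKM values, was somewhat greater in ZP, such that 1 fragment on a gene of 1 kb was worth 0.0342 and 0.0397 FPKM in the ZP libraries and 0.0499 and 0.0458 FPKM in the MH libraries. Seed storage protein and oleosin genes took 0.0602% and 0.0865% of the summed FPKM in ZP, against 20.9% and 17.2% in MH. The 10 most abundant genes held 10.7% and 10.8% of the sum in ZP, against 26.2% and 22.6% in MH. FPKM values are shares of a library. Dividing each library by a median-ratio size factor moved the median difference over all tested genes to 0.05, against 0.24 as deposited.

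At day 35, 5793 genes (45.8%) were called higher in ZP and 3925 (31.1%) lower, 76.9% of the 12637 tested. Median-ratio scaling gave 5035 genes called higher (39.8%) and 4656 called lower (36.8%). With a change of at least 2-fold required as well, 5595 genes (44.3%) were called. The ZP libraries both lay above both MH libraries in 6734 genes (53.3%) and below both in 4713 (37.3%). Most genes named below were chosen among called genes in which the varieties do not overlap. The lack of overlap in them thus follows from the choice. Single genes reached very large differences: 98 called genes (0.776%) had a difference of -5 or lower and 40 (0.317%) one of 5 or higher. Each gene group below is read against these shares and against the median difference of 0.24. In whole ovules, fewer cells of a type and less RNA per cell cannot be told apart.

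**Figure D1:**
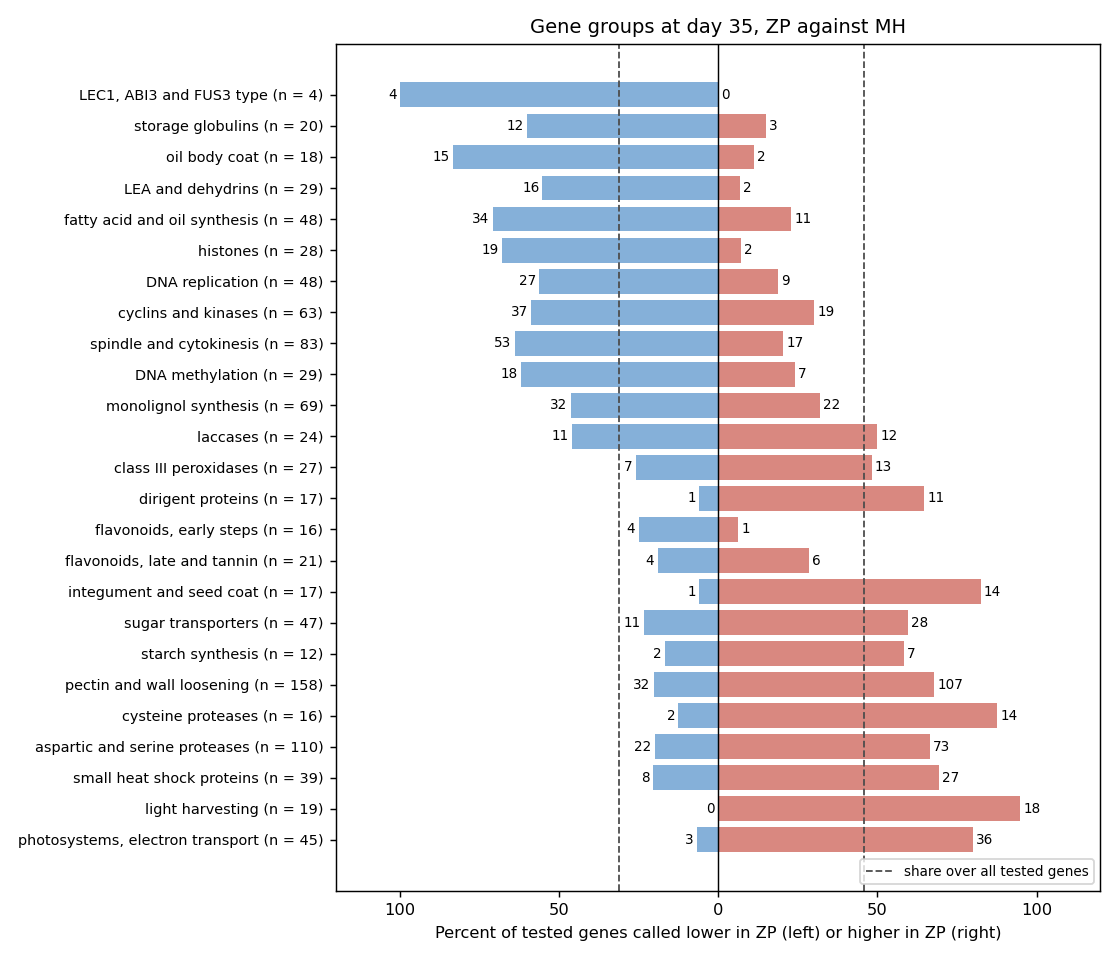
Share of the tested genes of each group called lower in ZP (bars to the left, percent) or higher in ZP (bars to the right, percent) at day 35, with the number of called genes at each bar and the number tested in brackets. Dashed lines mark the shares over all 12637 tested genes, 45.8% higher and 31.1% lower; embryo regulators, oil body and oil synthesis genes, histones and spindle genes pass the left line, and photosynthesis, protease and integument groups pass the right one.

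The regulators that drive embryo maturation were lower in ZP, all 4 of 4 tested, with a median difference of -6.10. NF-YB6 (LOC100855401), a LEC1-type subunit of a CCAAT-binding factor, was at 1.58 and 1.95 FPKM in the ZP libraries, against 654 and 575 FPKM in the MH libraries, a difference of -7.80 ± 0.37 (adjusted p = 5.99e-10). ABI3 (LOC100854233), a B3-domain factor that maintains the maturation programme, was at 0.621 and 0.61 FPKM in the ZP libraries, against 223 and 198 FPKM in the MH libraries, a difference of -7.03 ± 0.22 (adjusted p = 2.00e-11). Both ZP libraries were far below both MH libraries in each case. FUS3 (LOC100244687), another B3 factor of the same network, was at 0 and 0.0246 FPKM in the ZP libraries, against 35.4 and 35.3 FPKM in the MH libraries; its FUS3-like relative (LOC100855410) was at 0.266 and 0.352 FPKM in ZP and 23.6 and 35.3 FPKM in MH. The differences were -5.17 ± 0.18 (adjusted p = 3.92e-11) and -4.51 ± 0.24 (adjusted p = 2.01e-09). WOX2 (LOC100263784), a homeobox gene of the early embryo in Arabidopsis, was at 0.659 and 0.442 FPKM in the ZP libraries, against 61.0 and 51.0 FPKM in the MH libraries, a difference of -5.20 ± 0.19 (adjusted p = 6.98e-11). Summed over these 5 embryo genes, the level was 3.13 and 3.37 FPKM in ZP, against 996.9 and 894.1 FPKM in MH, so the groups were far apart and the ZP libraries close to 0. In the coordinates of the deposited table, which match RefSeq assembly ASM3070453v1, NF-YB6 lies on chromosome 10 (2761959 to 2764570, plus strand) and WOX2 on chromosome 6 (5471804 to 5473477, minus strand).

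WRI1 (LOC100250488), the AP2-type factor that turns on fatty acid synthesis in seeds, was at 1.14 and 1.10 FPKM in the ZP libraries, against 279.9 and 243 FPKM in the MH libraries, a difference of -6.95 ± 0.20 (adjusted p = 8.84e-12). The AP2-type factor AIL6 (LOC100854470), of a family that keeps young tissue dividing, was at 7.57 and 7.55 FPKM in the ZP libraries, against 164 and 139.8 FPKM in the MH libraries, a difference of -4.15 ± 0.21 (adjusted p = 1.02e-09). The other members of this role did not follow them: of 7 tested, 4 were called higher in ZP and 2 lower. Of 10 bZIP genes described as ABI5 or ABI5-like, which act in the abscisic acid response of seeds, 3 were higher and 5 lower. ABI5-like 1 (LOC100255346) stood furthest down at 1.21 and 1.21 FPKM in the ZP libraries, against 123 and 156 FPKM in the MH libraries, a difference of -5.98 ± 0.28 (adjusted p = 5.01e-10). MOTHER OF FT AND TFL1 (LOC100853664), a germination regulator, was at 0 and 0.095 FPKM in the ZP libraries, against 725 and 551 FPKM in the MH libraries, a difference of -9.24 ± 0.42 (adjusted p = 4.38e-10); no ZP library came near the MH ones.

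**Figure D2:**
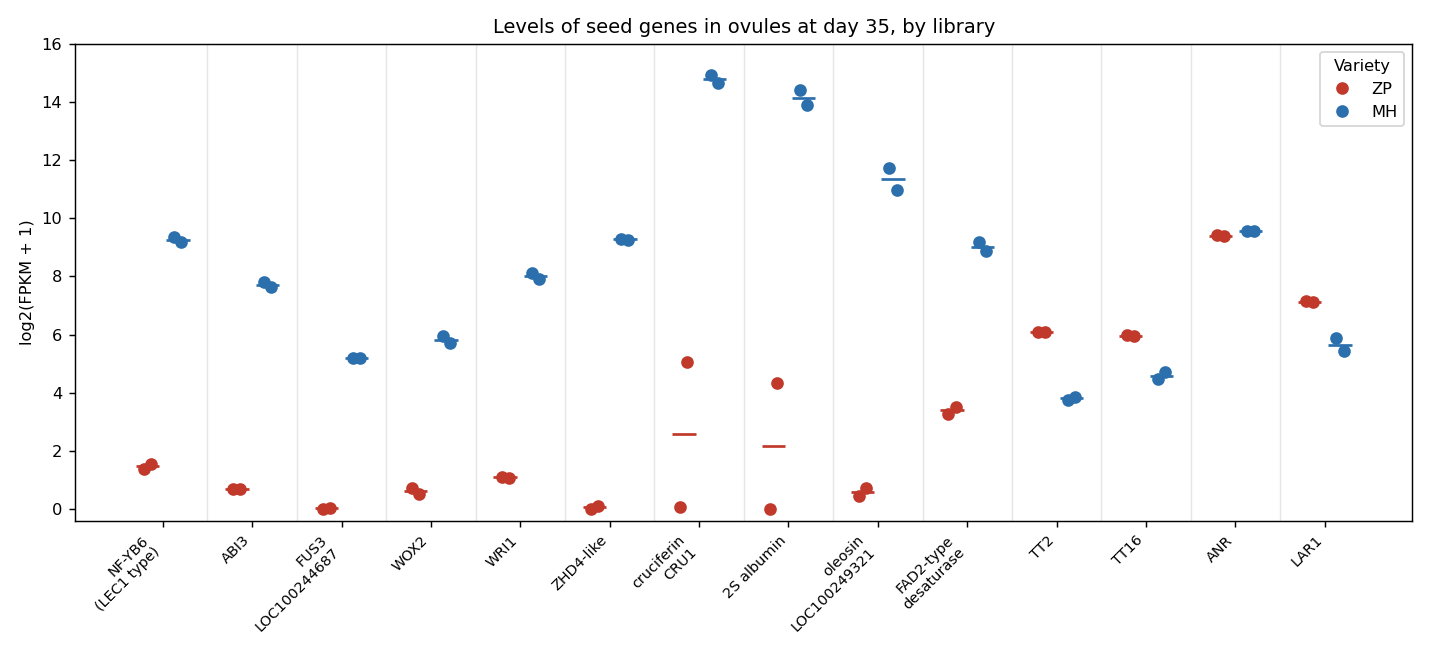
Levels of 14 seed genes at day 35 in log2(FPKM + 1), with each library a point (ZP red, MH blue) and the mean of the points of a variety a short line. Embryo regulators, storage proteins and the oleosin are near 0 in at least 1 ZP library and high in both MH libraries, the delta-12 desaturase is lower in ZP, TT2, TT16 and LAR1 are higher in ZP, and ANR is nearly level.

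The products of embryo maturation followed the same direction. Globulins include the main storage proteins of the seed. Among 20 tested genes of the globulin list, matched by description and including basic 7S globulins, 12 were lower in ZP and 3 higher. All 3 tested 2S albumins were lower. Cruciferin CRU1 (LOC100246409) was at 0.0589 and 32.0 FPKM in the ZP libraries, against 31196 and 26086 FPKM in the MH libraries, a difference of -12.24 ± 1.92 (adjusted p = 6.04e-05). Legumin A (LOC100241281), its close neighbour on chromosome 7 (6653634 to 6655702, minus strand), was at 0.0191 and 18.2 FPKM in ZP and 17542 and 13972 FPKM in MH. A 2S albumin (LOC100252101) was at 0 and 19.0 FPKM in ZP and 21812 and 15127 FPKM in MH. The differences of these were -11.79 ± 0.99 (adjusted p = 1.52e-07) and -11.99 ± 1.29 (adjusted p = 1.79e-06). These genes were among the most abundant in MH, while the ZP libraries were split, with replicate 1 near 0 and replicate 2 above it. The exceptions in the globulin list were moderate, the largest positive difference being 2.43. A basic 7S globulin (LOC100259548) had a difference of 1.94. Glutelin type-D 1 (LOC100256985) was at 114 and 113 FPKM in ZP and 37.5 and 36.0 FPKM in MH, a difference of 1.60 ± 0.09 (adjusted p = 2.65e-09). Near-identical copies are common in these families, and how reads shared between copies were assigned is not given in the sources used here.

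The split between the ZP libraries was counted over all tested genes. In 7 genes ZP replicate 2 had at least 10 times the level of replicate 1 and at least 5 FPKM, and in 0 genes the reverse held; in MH the numbers were 2 and 0. The 7 genes were CRU1, legumin A, the 2S albumin, a basic 7S globulin (LOC100240860), a vicilin-like antimicrobial peptide (LOC100852645), an endochitinase (LOC100255900) and a lipid-transfer protein (LOC100266074), and these were singled out after their values were seen. In ZP replicate 2, CRU1, the 2S albumin and legumin A stood at 0.112%, 0.103% and 0.115% of their MH means, while the oleosin LOC100249321 stood at 0.0233%. The share was not the same in all split genes. The lipid-transfer protein, the vicilin-like peptide, the basic 7S globulin and the endochitinase stood at 0.78%, 0.97%, 4.3% and 7.6%. CRU1 was split likewise at day 45, at 0.173 and 44.4 FPKM in ZP, and at day 55, at 0.163 and 75.0 FPKM. The source of these reads was not tested. Without ZP replicate 1 the differences of CRU1, legumin A and the 2S albumin were -9.75, -9.67 and -9.83, and without ZP replicate 2 they were -14.72, -13.91 and -14.15, all still called.

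Oil body coat proteins were lower in ZP in 15 of 18 tested genes and higher in 2, with a median difference of -4.94. An oleosin (LOC100249321), the structural protein of the oil body surface, was at 0.365 and 0.634 FPKM in the ZP libraries, against 3425 and 2011 FPKM in the MH libraries, a difference of -10.78 ± 0.50 (adjusted p = 5.46e-10). A second oleosin (LOC100255962) was at 0.627 and 0.771 FPKM in ZP and 2306 and 1608 FPKM in MH, with a difference of -10.15 ± 0.46 (adjusted p = 3.90e-10). Both were chosen among genes without overlap between the groups, and their ZP replicates were close to each other. The other direction was taken by a gene of the steroleosin type (LOC100245367), described as a hydroxysteroid dehydrogenase, at 21.2 and 21.4 FPKM in ZP and 0.857 and 1.11 FPKM in MH and a difference of 3.49 ± 0.11 (adjusted p = 2.00e-11). Late embryogenesis abundant proteins and dehydrins, which protect drying tissue, were lower in 16 of 29 genes and higher in 2, with a median of -0.72; 11 were not called. LEA protein 1 (LOC100258268) was at 0.448 and 0.777 FPKM in ZP and 105 and 82.7 FPKM in MH, a difference of -5.88 ± 0.37 (adjusted p = 9.72e-09). The tonoplast aquaporin TIP3-2 (LOC100252897), of a seed-specific type, was at 0 and 0.474 FPKM in ZP and 315 and 215 FPKM in MH, a difference of -7.75 ± 0.37 (adjusted p = 6.43e-10).

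Genes of fatty acid and oil synthesis were lower in ZP in 34 of 48 tested genes and higher in 11, with a median of -1.26. The shift ran through the plastid steps. All 8 genes of plastid carbon supply were lower, as were 5 of 6 subunits of acetyl-CoA carboxylase, which commits carbon to fatty acids, and 10 of 14 fatty acid synthase genes. The biotin carrier BCCP2 (LOC100254365) was at 4.35 and 3.60 FPKM in ZP and 35.0 and 39.5 FPKM in MH, a difference of -2.94 ± 0.16 (adjusted p = 2.83e-09). Enoyl-ACP reductase (LOC100250344), the last step of each elongation cycle, was at 37.9 and 37.4 FPKM in ZP and 292 and 310.0 FPKM in MH, a difference of -2.97 ± 0.13 (adjusted p = 2.69e-10). Pyruvate dehydrogenase E1 beta (LOC100250049), which makes acetyl-CoA, was at 43.1 and 41.0 FPKM in ZP and 129.6 and 112 FPKM in MH, a difference of -1.49 ± 0.12 (adjusted p = 8.50e-08). In each of these the ZP libraries were well below both MH libraries, and the replicates of ZP differed little.

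Desaturation and oil assembly showed pairs of like-named genes with opposite behaviour. A delta-12 desaturase (LOC100258789), which makes linoleic acid, was at 8.61 and 10.5 FPKM in the ZP libraries, against 584 and 465 FPKM in the MH libraries, a difference of -5.64 ± 0.18 (adjusted p = 2.00e-11). FAD2 (LOC100252129), the same activity and chosen after its values were seen, was at 161 and 151 FPKM in ZP and 179 and 159 FPKM in MH, a difference of -0.11 ± 0.11 (adjusted p = 0.377) that did not pass, though it was called lower after median-ratio scaling (-0.39, adjusted p = 0.00646) and quantile normalization (-0.30, adjusted p = 0.0231). A stearoyl-ACP desaturase (LOC100255873) was at 30.2 and 28.6 FPKM in ZP and 632 and 324 FPKM in MH, a difference of -3.90 ± 0.41 (adjusted p = 1.32e-06). Triacylglycerol assembly was even, with 5 genes higher and 5 lower of 10. Of 2 genes described as phospholipid:diacylglycerol acyltransferase 1, LOC100259274 was at 6.00 and 6.69 FPKM in ZP and 39.8 and 37.5 FPKM in MH, a difference of -2.43 ± 0.12 (adjusted p = 8.29e-10), while LOC100256634 was at 37.9 and 39.6 FPKM in ZP and 12.3 and 12.6 FPKM in MH, a difference of 1.57 ± 0.13 (adjusted p = 1.28e-07). Diacylglycerol acyltransferase 3 (LOC100242564), which forms the final oil molecule, was higher in ZP, at 233 and 225 FPKM in ZP and 97.5 and 97.5 FPKM in MH and a difference of 1.22 ± 0.10 (adjusted p = 1.62e-07).

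**Figure D3:**
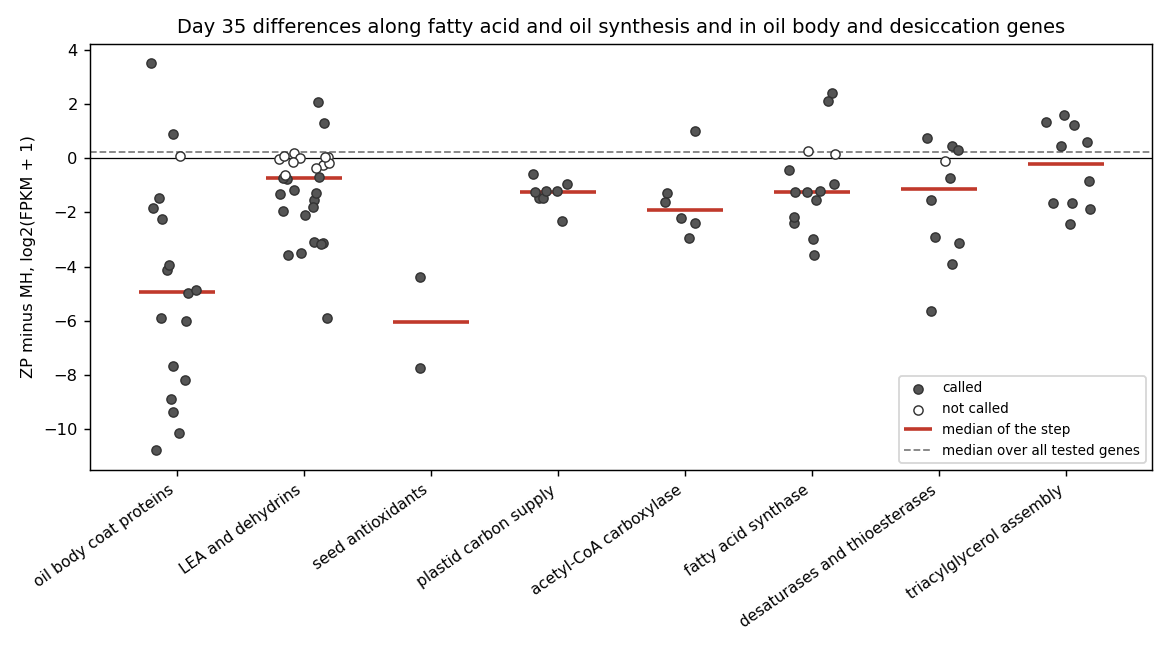
Day 35 differences (ZP minus MH, log2(FPKM + 1)) of single genes, by step, for oil body, desiccation, fatty acid and oil synthesis genes; filled points were called, open points were not, red lines are medians of a step and the dashed line is the median over all tested genes (0.24). All points of plastid carbon supply lie below 0, and triacylglycerol assembly is spread on both sides.

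Cell division genes were lower in ZP in 136 of 222 tested and higher in 47, with a median of -0.61. By role, 27 of 48 replication genes, 37 of 63 cyclins and cyclin-dependent kinases, 53 of 83 spindle and cytokinesis genes and 19 of 28 histones were lower. TPX2 (LOC104882102), a spindle assembly factor, was at 1.68 and 1.57 FPKM in ZP and 19.8 and 26.5 FPKM in MH, a difference of -3.19 ± 0.18 (adjusted p = 3.18e-09). The gap between groups was of a similar size for a regulator of the cycle. Cyclin-D4-2 (LOC100265861), of the class that drives entry into the cycle, was at 2.51 and 3.03 FPKM in ZP and 34.2 and 39.4 FPKM in MH, a difference of -3.32 ± 0.18 (adjusted p = 2.28e-09). A histone H2A (LOC100257988) was at 11.3 and 12.3 FPKM in ZP and 68.2 and 58.1 FPKM in MH, a difference of -2.32 ± 0.24 (adjusted p = 1.26e-06). These genes were chosen among genes without overlap between ZP and MH. The division genes were still expressed in ZP: of 40 tested markers of dividing cells 9 were higher and 28 lower, and the 41 in the table summed to 867.6 and 888.8 FPKM in ZP and to 1095.9 and 1020.6 FPKM in MH. The cycle inhibitor SMR1 (LOC104878241) was higher in ZP, at 103 and 95.6 FPKM in ZP and 36.2 and 24.7 FPKM in MH and a difference of 1.70 ± 0.20 (adjusted p = 5.28e-06).

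DNA methylation genes were lower in ZP in 18 of 29 and higher in 7, with a median of -0.78. The inactive methyltransferase homologue DRM3 (LOC100247823), which supports RNA-directed methylation in Arabidopsis, was at 19.5 and 19.7 FPKM in ZP and 64.4 and 75.7 FPKM in MH, a difference of -1.78 ± 0.23 (adjusted p = 1.03e-05). Argonaute and dicer genes were mixed, 8 higher and 5 lower of 19. Argonaute 10 (LOC100244311), linked in Arabidopsis to meristem upkeep, was at 3.90 and 3.68 FPKM in ZP and 20.4 and 23.6 FPKM in MH, while argonaute 2 (LOC100251084), linked there to antiviral defence, was at 17.3 and 18.4 FPKM in ZP and 2.81 and 2.73 FPKM in MH. The differences were -2.26 ± 0.18 (adjusted p = 1.02e-07) and 2.32 ± 0.13 (adjusted p = 2.12e-09). Of 6 polycomb genes 3 were lower and 0 higher (5 and 0 after median-ratio scaling), the largest size being -0.79.

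Regulators outside the maturation network showed some of the widest gaps of all. The zinc-finger homeodomain gene ZHD2-like (LOC100245660) was at 0 and 0.103 FPKM in the ZP libraries, against 834 and 752 FPKM in the MH libraries, a difference of -9.56 ± 0.22 (adjusted p = 2.13e-12). ZHD4-like (LOC100250800) was at 0 and 0.074 FPKM in the ZP libraries, against 622 and 617 FPKM in the MH libraries, a difference of -9.23 ± 0.18 (adjusted p = 1.23e-12). In both genes ZP replicate 1 is listed at 0 and the MH libraries are close to each other. Both lie on chromosome 12, ZHD2-like at 22063292 to 22064440 (plus strand) and ZHD4-like at 22066572 to 22067634 (minus strand). Growth-regulating factor 1 (LOC100853530), of a family that promotes organ growth, was at 2.95 and 3.10 FPKM in ZP and 256 and 246 FPKM in MH, a difference of -5.97 ± 0.23 (adjusted p = 8.70e-11). TCP8 (LOC104879624), of a family acting on cell division, was at 8.65 and 8.74 FPKM in ZP and 193 and 144 FPKM in MH, a difference of -4.11 ± 0.17 (adjusted p = 1.90e-10). The MADS-box genes AGL66 (LOC100854256) and AGL104 (LOC100253913), known from Arabidopsis pollen, had differences of -4.27 and -4.82. Over all 371 transcription factor genes of 8 families, 182 were higher and 111 lower in ZP, close to the shares over all genes, and the median was 0.31.

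Of 10 tested genes of sucrose cleavage, 4 were higher in ZP and 4 lower, with a median of 0.09, and single members differed widely in both directions. Sucrose synthase 2 (LOC100243135), which splits sucrose in growing seeds and other sinks, was at 0.697 and 1.09 FPKM in the ZP libraries, against 2577 and 2931 FPKM in the MH libraries, a difference of -10.51 ± 0.26 (adjusted p = 3.18e-12). A soluble invertase (LOC100256970), which splits sucrose in the vacuole, was at 84.8 and 84.7 FPKM in ZP and 2.23 and 2.54 FPKM in MH, a difference of 4.66 ± 0.10 (adjusted p = 1.50e-12). An acid invertase (LOC100241232) was at 35.0 and 35.4 FPKM in ZP and 6.21 and 5.59 FPKM in MH, a difference of 2.39 ± 0.11 (adjusted p = 5.14e-10). The insoluble invertase CWINV, which splits sucrose in the cell wall, was lower in ZP, at 9.14 and 10.1 FPKM in ZP and 20.9 and 22.0 FPKM in MH, a difference of -1.08 ± 0.18 (adjusted p = 1.14e-04). These 4 genes were chosen among genes without overlap between ZP and MH, and the invertases did not share a direction. Of 47 sugar transporters 28 were higher and 11 lower. The exporter SWEET10 (LOC100267921) was at 3.42 and 1.79 FPKM in ZP and 41.9 and 47.0 FPKM in MH, and ERD6-like 8 (LOC100264207), of a vacuolar exporter family, at 362 and 369 FPKM in ZP and 17.4 and 22.9 FPKM in MH. Their differences were -3.69 ± 0.19 (adjusted p = 1.24e-09) and 4.13 ± 0.20 (adjusted p = 7.80e-10). Starch synthesis genes were higher in 7 of 12 and lower in 2, among them a granule-bound starch synthase (LOC100261002) with a difference of 2.53 ± 0.14 (adjusted p = 2.17e-09).

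Photosynthesis genes were higher in ZP in 69 of 81 and lower in 5, with a median of 1.69. Light-harvesting genes were higher in 18 of 19, photosystem and electron transport genes in 36 of 45, and genes of carbon fixation and chlorophyll synthesis in 15 of 17. Oxygen-evolving enhancer protein 1 (LOC100260811), part of photosystem II, was at 65.4 and 63.1 FPKM in ZP and 3.44 and 2.86 FPKM in MH, a difference of 3.98 ± 0.13 (adjusted p = 3.01e-11). A subunit of photosystem I (LOC100247987) was at 303 and 295 FPKM in ZP and 36.6 and 31.2 FPKM in MH, a difference of 3.11 ± 0.22 (adjusted p = 3.51e-08). A protochlorophyllide reductase (LOC100255647), which makes chlorophyll in the light, was at 184 and 173 FPKM in ZP and 30.4 and 27.0 FPKM in MH, a difference of 2.60 ± 0.17 (adjusted p = 1.20e-08). Summed over the list, the level was 8538 and 8403 FPKM in ZP, against 2875 and 2468 FPKM in MH.

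The list had 2 exceptions in carbon fixation, both lower in ZP. A Rubisco small chain (LOC100256536), the enzyme that fixes carbon dioxide, was at 0.572 and 1.04 FPKM in the ZP libraries, against 523 and 565 FPKM in the MH libraries, a difference of -8.25 ± 0.24 (adjusted p = 1.00e-11). Phosphoribulokinase (LOC100256246), which regenerates its substrate, was at 0 and 0.197 FPKM in the ZP libraries, against 110.3 and 112 FPKM in the MH libraries, a difference of -6.68 ± 0.16 (adjusted p = 2.19e-12). Both were abundant in MH and at or near 0 in ZP. In rapeseed embryos Rubisco is known to recapture carbon dioxide during oil synthesis. Markers of pericarp and skin moved in the same direction as the photosynthesis list: 45 of 72 were higher in ZP and 17 lower, with levels, summed over the 76 in the table, of 6906 and 6829 FPKM in ZP, against 5710 and 5523 FPKM in MH. Their part in the photosynthesis result was not tested.

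Small heat shock proteins, which hold unfolding proteins in solution, were higher in ZP in 27 of 39 and lower in 8, with a median of 2.61. A class IV member (LOC104881029) was at 512 and 494 FPKM in ZP and 8.69 and 6.72 FPKM in MH, a difference of 5.87 ± 0.25 (adjusted p = 2.35e-10). Another small heat shock protein of class I (LOC100259921) was at 205 and 204 FPKM in ZP and 3.44 and 2.72 FPKM in MH, a difference of 5.66 ± 0.20 (adjusted p = 4.36e-11). A class I member (LOC100263355) went the other way, at 19.2 and 18.8 FPKM in ZP and 76.4 and 75.6 FPKM in MH and a difference of -1.94 ± 0.14 (adjusted p = 3.33e-08). BAG6 (LOC100256846), a co-chaperone, was at 1389 and 1354 FPKM in ZP and 120.4 and 135 FPKM in MH, a difference of 3.42 ± 0.20 (adjusted p = 3.49e-09), and the heat shock factor HSF30 (LOC100245740) at 269.9 and 262 FPKM in ZP and 57.7 and 61.6 FPKM in MH, a difference of 2.14 ± 0.13 (adjusted p = 5.18e-09). Chaperones of the endoplasmic reticulum did not share the direction: 3 were higher and 4 lower of 12, with a median of -0.18, and 2 were higher and 7 lower after median-ratio scaling. Over days 45 to 61 the median of the small heat shock proteins was -0.55, and in 33 of 39 genes the day 35 difference was called above that of the later days (34 after median-ratio scaling), against 19.6% of all tested genes.

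Genes of proteolysis and cell death were higher in ZP in 113 of 166 and lower in 28, with a median of 1.09. The family of vacuolar processing enzymes, proteases that mature storage proteins and act in cell death, was split. One member (LOC100251259) was at 3536 and 3525 FPKM in the ZP libraries, against 46.3 and 42.8 FPKM in the MH libraries, a difference of 6.28 ± 0.17 (adjusted p = 6.90e-12). Another (LOC100260773) was at 33.4 and 32.8 FPKM in the ZP libraries, against 765 and 708 FPKM in the MH libraries, a difference of -4.43 ± 0.20 (adjusted p = 3.48e-10). The third (LOC100244137) was at 246 and 248 FPKM in ZP and 186 and 170.1 FPKM in MH, with a difference of 0.48 ± 0.11 (adjusted p = 0.00137) that falls to 0.19 (adjusted p = 0.118) after median-ratio scaling. The first was thus the most abundant of the 3 in ZP, where its mean was 79.3-fold that of MH, and the second the most abundant in MH, where its mean was 22.2-fold that of ZP. They lie on chromosomes 9 (22827035 to 22830595, plus strand) and 2 (4809335 to 4812147, plus strand).

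Cysteine proteases were higher in ZP in 14 of 16, such as RD19A (LOC100250475), at 19.7 and 21.1 FPKM in ZP and 3.45 and 4.59 FPKM in MH and a difference of 2.10 ± 0.16 (adjusted p = 6.64e-08). Another papain-type gene, RD19D (LOC100244387) was at 0.488 and 0.565 FPKM in the ZP libraries, against 485 and 384 FPKM in the MH libraries, a difference of -8.15 ± 0.30 (adjusted p = 7.26e-11). Metacaspases and nucleases were higher in 11 of 17 and lower in 1; after median-ratio scaling 7 were higher and 2 lower, near the 39.8% called higher over all genes under that scaling. Metacaspase-9 (LOC100244812), active in dying xylem cells of Arabidopsis, was at 361 and 348 FPKM in ZP and 71.8 and 55.7 FPKM in MH, a difference of 2.47 ± 0.16 (adjusted p = 1.04e-08). Aspartic and serine proteases were higher in 73 of 110. The aspartyl protease AED3 (LOC100252287) had the largest positive difference of any described gene with at least 10 FPKM, at 446 and 413 FPKM in the ZP libraries, against 0.607 and 0.251 FPKM in the MH libraries and 8.25 ± 0.17 (adjusted p = 1.46e-12). Serine carboxypeptidase-like 42 (LOC100262647) was lower, at 8.39 and 9.39 FPKM in ZP and 136 and 146 FPKM in MH and a difference of -3.85 ± 0.13 (adjusted p = 3.56e-11). Cysteine proteinase inhibitor 4 (LOC100259013) was at 0 and 0.543 FPKM in ZP and 1120.1 and 922 FPKM in MH, a difference of -9.68 ± 0.42 (adjusted p = 3.02e-10).

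Monolignol synthesis, the pathway the study set out to follow, was lower in ZP in 32 of 69 tested genes and higher in 22, with a median of -0.19 against 0.24 over all genes. The entry enzyme, phenylalanine ammonia-lyase, was lower in 4 of 7 genes and higher in 2; PAL G1 (LOC100233012) was at 51.3 and 47.1 FPKM in ZP and 98.6 and 84.7 FPKM in MH, a difference of -0.88 ± 0.13 (adjusted p = 3.18e-05). The main cinnamate 4-hydroxylase (LOC100253493) was at 519.9 and 491 FPKM in ZP and 424 and 374 FPKM in MH, a difference of 0.34 ± 0.12 (adjusted p = 0.021) that becomes 0.05 (adjusted p = 0.745) after median-ratio scaling. The hydroxylase C3H (LOC100263633), which adds the ring oxygen of the guaiacyl unit, was at 29.4 and 31.2 FPKM in ZP and 116 and 80.8 FPKM in MH, a difference of -1.65 ± 0.22 (adjusted p = 1.12e-05). The ZP libraries lay below both MH libraries in PAL G1 and C3H, which does not hold for every PAL gene, and above both in the main C4H.

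Later steps were divided among gene copies. All 6 called caffeoyl-CoA O-methyltransferases of 7 tested, which methylate the guaiacyl ring, were lower in ZP. The member LOC100262946 was at 1.05 and 1.19 FPKM in the ZP libraries, against 109.6 and 121 FPKM in the MH libraries, a difference of -5.77 ± 0.29 (adjusted p = 1.16e-09). Ferulate 5-hydroxylase (LOC100250277), the step to syringyl units, was at 2.52 and 2.44 FPKM in ZP and 19.2 and 16.9 FPKM in MH, a difference of -2.45 ± 0.22 (adjusted p = 2.45e-07). Caffeoylshikimate esterases were higher in 5 of 8 and lower in 1. Of 16 cinnamoyl-CoA reductases 4 were higher and 6 lower. The member LOC100251776 was at 0.315 and 0.637 FPKM in ZP and 18.7 and 22.9 FPKM in MH, while LOC100242793 was at 161 and 158 FPKM in ZP and 90.0 and 96.3 FPKM in MH; the differences were -3.89 ± 0.16 (adjusted p = 1.84e-10) and 0.77 ± 0.10 (adjusted p = 1.15e-05).

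Cinnamyl alcohol dehydrogenases, the last enzymes before polymerisation, were called in all 11 genes, 6 higher and 5 lower, while after median-ratio scaling 3 were called higher and 5 lower. CAD9 (LOC100250644) was at 0 and 0.093 FPKM in the ZP libraries, against 92.1 and 77.5 FPKM in the MH libraries, a difference of -6.35 ± 0.21 (adjusted p = 2.55e-11). CAD6 (LOC100262607) was at 82.9 and 85.2 FPKM in ZP and 12.9 and 11.3 FPKM in MH, a difference of 2.70 ± 0.14 (adjusted p = 1.08e-09). A mannitol dehydrogenase of this family (LOC100245522) was at 656 and 650.2 FPKM in ZP and 83.2 and 76.7 FPKM in MH, a difference of 3.01 ± 0.13 (adjusted p = 2.08e-10). CAD9 was thus near 0 in ZP, while CAD6 and this mannitol dehydrogenase were higher there in both libraries. Several of the 11 genes counted are described as probable mannitol dehydrogenases. Whether a gene described only by family makes lignin precursors is not known from these descriptions.

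**Figure D4:**
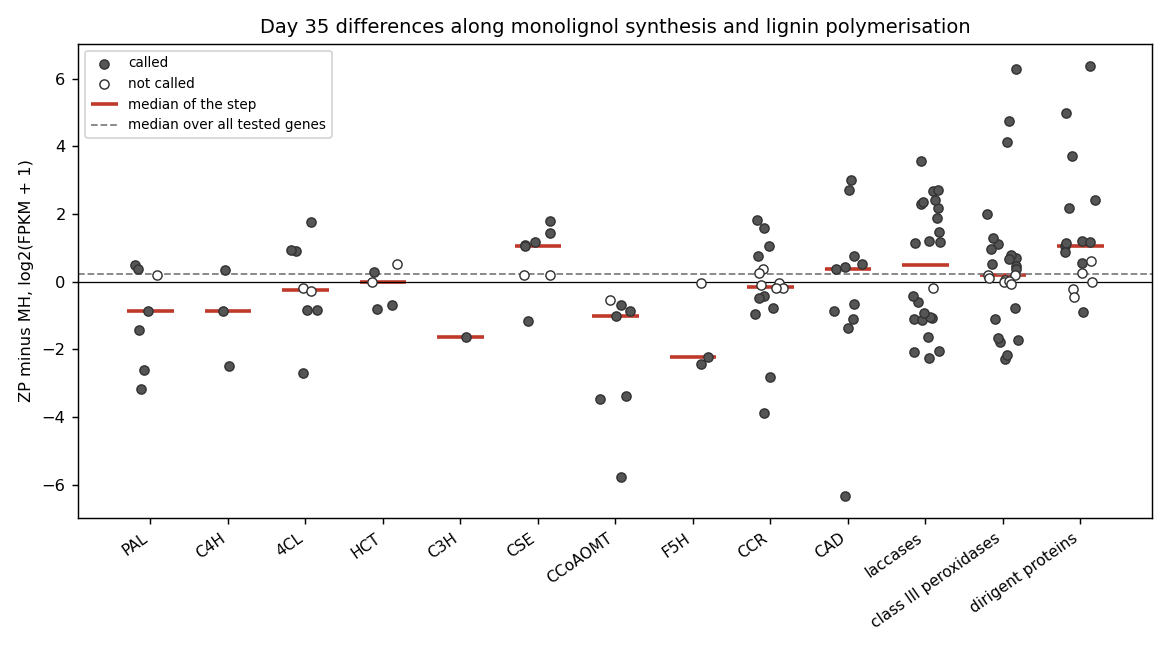
Day 35 differences (ZP minus MH, log2(FPKM + 1)) of single genes, by step from phenylalanine ammonia-lyase (PAL) to the polymerising enzymes; filled points were called, open points were not, red lines are medians of a step and the dashed line is the median over all tested genes (0.24). Points lie on both sides of 0 in most steps, while all CCoAOMT points are below it and dirigent proteins lie mostly above.

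The enzymes that polymerise monolignols were also split. Laccases, copper oxidases of the wall, were higher in 12 of 24 and lower in 11. Laccase-17 (LOC100256283) was at 21.1 and 24.6 FPKM in ZP and 122 and 106 FPKM in MH and laccase-4 (LOC100240808) at 10.9 and 13.0 FPKM in ZP and 42.8 and 35.8 FPKM in MH, with differences of -2.27 ± 0.15 (adjusted p = 1.66e-08) and -1.64 ± 0.19 (adjusted p = 3.20e-06); these types act in lignification in Arabidopsis. Genes described as laccase-17 or laccase-4 did not all share this direction, as in LOC100251378 and LOC100247392, both singled out after their values were seen. Laccase-17 LOC100251378 had means of 11.05 FPKM in ZP and 0.0118 FPKM in MH, a difference of 3.57 (adjusted p = 6.17e-10). Laccase-4 LOC100247392 had means of 5.70 FPKM in ZP and 0.269 FPKM in MH, a difference of 2.40 (adjusted p = 2.08e-08). Laccase-15 (LOC100258642), singled out after its values were seen, was at 561 and 577 FPKM in ZP and 118 and 114 FPKM in MH, a difference of 2.29 ± 0.16 (adjusted p = 3.40e-08). Class III peroxidases were higher in 13 of 27 and lower in 7, near the shares over all genes. Peroxidase 51 (LOC100254910) was at 96.6 and 98.1 FPKM in the ZP libraries, against 0.313 and 0.205 FPKM in the MH libraries, a difference of 6.29 ± 0.14 (adjusted p = 1.50e-12). Peroxidase 42 (LOC100241814), also chosen after its values were seen, was at 321 and 306 FPKM in ZP and 1118 and 1075 FPKM in MH, a difference of -1.80 ± 0.14 (adjusted p = 5.42e-08).

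Dirigent proteins, which steer the coupling of lignin-type radicals, were higher in 11 of 17 and lower in 1, with a median of 1.05. A dirigent protein 23 (LOC100264136) was at 101 and 96.5 FPKM in the ZP libraries, against 0.336 and 0.0616 FPKM in the MH libraries, a difference of 6.39 ± 0.14 (adjusted p = 1.50e-12); a like-named gene (LOC100241853) was at 49.6 and 50.4 FPKM in ZP and 0.707 and 0.499 FPKM in MH, a difference of 5.00 ± 0.15 (adjusted p = 1.12e-11). Secondary wall cellulose and xylan genes were higher in 20 of 39 and lower in 13, near the shares over all genes. The wall regulator MYB83 (LOC100243210), which starts secondary wall building in Arabidopsis, was at 11.2 and 11.8 FPKM in ZP and 2.81 and 3.23 FPKM in MH, a difference of 1.64 ± 0.14 (adjusted p = 1.83e-07). Of 9 xylem markers 5 were higher and 3 lower. Their summed level was 95.1 and 104.8 FPKM in ZP and 250.5 and 215.9 FPKM in MH. Most of these markers are genes described as laccase-4 or laccase-17, which are also counted among the laccases above. The MH sum came mostly from LOC100256283, LOC100267265 and LOC100240808, with means of 114.3, 73.83 and 39.27 FPKM in MH. Among these markers laccase-4 (LOC100267265) was at 33.1 and 37.1 FPKM in ZP and 79.5 and 68.2 FPKM in MH, a difference of -1.05 ± 0.17 (adjusted p = 6.21e-05).

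Integument and seed coat regulators were higher in ZP in 14 of 17 and lower in 1, with a median of 1.06. TT2 (LOC100254224), the MYB factor that turns on seed coat tannins in Arabidopsis, was at 67.4 and 67.0 FPKM in the ZP libraries, against 12.6 and 13.4 FPKM in the MH libraries, a difference of 2.28 ± 0.14 (adjusted p = 5.78e-09). The zinc finger protein TT1 (LOC100264302), needed there for tannin in the inner coat, was at 18.5 and 17.8 FPKM in ZP and 3.31 and 3.27 FPKM in MH, a difference of 2.16 ± 0.13 (adjusted p = 4.07e-09). BEL1-like 1 (LOC100259827), of a homeodomain family that includes the ovule gene BEL1, was at 19.6 and 20.1 FPKM in ZP and 3.95 and 3.25 FPKM in MH, a difference of 2.18 ± 0.15 (adjusted p = 1.89e-08). All 3 were higher in both ZP libraries than in either MH library. Of 7 tested markers of integument and seed coat, 4 were higher and 1 lower. Summed over the 8 in the table, their levels were close, at 974.8 and 944.5 FPKM in ZP and 914.5 and 886 FPKM in MH. Most of each sum is the tannin enzyme anthocyanidin reductase, whose levels are given below, so the closeness mainly reflects that gene.

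In the tannin pathway many genes did not pass the test. Of 16 early flavonoid genes 1 was higher, 4 were lower and 11 were not called, and of 21 late and tannin genes 6 were higher, 4 lower and 11 not called (5 higher and 8 lower after median-ratio scaling), against a called share of 76.9% over all genes. LAR1, which makes catechin, was at 139.9 and 137 FPKM in ZP and 57.3 and 42.5 FPKM in MH, a difference of 1.47 ± 0.15 (adjusted p = 9.30e-07). LDOX, a step before it, was at 1374 and 1305 FPKM in ZP and 881 and 827 FPKM in MH, a difference of 0.65 ± 0.16 (adjusted p = 0.00247) that becomes 0.36 (adjusted p = 0.117) after median-ratio scaling. Anthocyanidin reductase (ANR), which makes epicatechin, was at 689 and 667 FPKM in ZP and 759 and 753 FPKM in MH, a difference of -0.16 ± 0.12 (adjusted p = 0.247), with a 95% interval from -0.42 to 0.10. F3H, an early flavonoid hydroxylase, was at 796 and 759 FPKM in ZP and 795 and 624 FPKM in MH, with a difference of 0.14 ± 0.16 (adjusted p = 0.428) and an interval from -0.20 to 0.49. Under other scalings ANR passed as lower (-0.44 after median-ratio scaling) and F3H as higher (0.38 after quantile normalization). Of 7 stilbene synthases and related genes 0 were called at day 35, whereas all 7 were called higher in ZP over the later days, against 62.7% of all tested genes.

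Intervals were read on the values as deposited only, without adjustment for the number of genes. Scaling moves them, as for ANR, whose difference was -0.44 after median-ratio scaling. As deposited, the 95% interval of the difference lay between -0.5 and 0.5 in 1354 genes (10.7%). The most abundant of these, beside ANR and F3H, were the cytochrome CYP78A5 (LOC100253660), linked in Arabidopsis to seed size, a chalcone isomerase-like protein 2 (LOC100255217) and ascorbate peroxidase 2 (LOC100233013). CYP78A5 was at 2359 and 2252 FPKM in ZP and 2656 and 2564 FPKM in MH, a difference of -0.18 ± 0.15 (adjusted p = 0.281), though it was called lower when the libraries were rescaled without storage and oil body genes (-0.36, adjusted p = 0.0392). The chalcone isomerase-like gene was at 857 and 854 FPKM in ZP and 782 and 958 FPKM in MH, a difference of -0.02 ± 0.15 (adjusted p = 0.925). Ascorbate peroxidase 2, which removes hydrogen peroxide, was at 720.1 and 721 FPKM in ZP and 717 and 727 FPKM in MH, a difference of 0.00 ± 0.13 (adjusted p = 0.987).

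Hormone genes showed large opposite changes within families. Among auxin genes 49 of 89 were higher in ZP and 27 lower. An influx carrier, auxin transporter-like 2 (LOC100253820), was at 30.2 and 30.5 FPKM in ZP and 0.638 and 0.515 FPKM in MH, while a like-named carrier (LOC100267240) was at 5.27 and 4.97 FPKM in ZP and 70.2 and 60.0 FPKM in MH; the differences were 4.32 ± 0.17 (adjusted p = 9.27e-11) and -3.43 ± 0.13 (adjusted p = 8.70e-11). Among 54 cytokinin genes 22 were higher and 21 lower. Cytokinin dehydrogenase 5 (LOC100267760), which breaks the hormone down, was at 212 and 207 FPKM in ZP and 9.23 and 8.90 FPKM in MH, a difference of 4.38 ± 0.12 (adjusted p = 8.84e-12). The response regulator ARR22 (LOC100255209), expressed in Arabidopsis seeds, was at 8.31 and 8.30 FPKM in ZP and 169 and 251 FPKM in MH, a difference of -4.48 ± 0.18 (adjusted p = 1.55e-10).

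Gibberellin 2-oxidase (LOC100244543), which inactivates gibberellins, was at 389 and 387 FPKM in ZP and 12.8 and 12.0 FPKM in MH, a difference of 4.86 ± 0.13 (adjusted p = 7.28e-12). The abscisic acid 8'-hydroxylase HYD3, which breaks down that hormone, was at 1.65 and 1.96 FPKM in ZP and 33.5 and 35.9 FPKM in MH, a difference of -3.67 ± 0.17 (adjusted p = 5.84e-10). Both degrading enzymes differed, in opposite directions. Of 30 gibberellin genes 19 were higher and 8 lower, and of 26 abscisic acid genes 11 were higher and 12 lower. Ethylene synthesis genes were higher in 14 of 19. RAP2-3 (LOC100249982), an ethylene response factor linked in Arabidopsis to low oxygen, was at 8.49 and 8.49 FPKM in ZP and 320.3 and 214 FPKM in MH, a difference of -4.79 ± 0.27 (adjusted p = 3.08e-09).

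Genes of wall loosening and of the surface were mostly higher in ZP. Pectin enzymes were higher in 46 of 65 and expansins and glucan enzymes in 61 of 93. A polygalacturonase (LOC100263206), which cuts pectin, was at 644 and 631 FPKM in ZP and 18.5 and 18.3 FPKM in MH, a difference of 5.04 ± 0.12 (adjusted p = 2.86e-12). Both groups of enzymes passed the share of 45.8% over all genes. Expansin-A4 (LOC100263987), which loosens walls, was at 66.9 and 68.1 FPKM in ZP and 1.97 and 0.886 FPKM in MH, a difference of 4.86 ± 0.22 (adjusted p = 4.73e-10). A beta-1,3-glucanase (LOC100260517) went the other way, at 0.147 and 0.34 FPKM in ZP and 280.1 and 178 FPKM in MH and a difference of -7.50 ± 0.32 (adjusted p = 2.10e-10). Of 70 cutin and wax genes 43 were higher and 16 lower; ECERIFERUM 1 (LOC100243849), an enzyme of wax alkane formation, was at 76.8 and 73.4 FPKM in ZP and 2.80 and 3.03 FPKM in MH, a difference of 4.28 ± 0.22 (adjusted p = 1.21e-09). GRIP22, described from grape berry ripening, was at 52.8 and 46.3 FPKM in ZP and 0 and 0.365 FPKM in MH, a difference of 5.43 ± 0.22 (adjusted p = 1.82e-10). Pericarp and skin markers are themselves part of this shift, 45 of 72 higher and 17 lower, with the summed levels given above. SWEET10 (LOC100267921), also in that marker list, was among the lower ones, with a difference of -3.69.

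Transport and primary metabolism added some of the most abundant differences. Aquaporins were higher in 13 of 18 and lower in 4; TIP4-1 (LOC100252631) was at 278 and 253 FPKM in ZP and 8.05 and 4.88 FPKM in MH, a difference of 5.19 ± 0.26 (adjusted p = 1.06e-09). Inositol-3-phosphate synthase (LOC100259515), the first step to inositol and phytate, was at 2295 and 2226 FPKM in the ZP libraries, against 65.7 and 60.7 FPKM in the MH libraries, a difference of 5.14 ± 0.11 (adjusted p = 1.50e-12). The nitrate and peptide transporter family member NPF3.1 (LOC100250961) was at 348 and 339 FPKM in ZP and 10.1 and 8.19 FPKM in MH, a difference of 5.09 ± 0.11 (adjusted p = 1.57e-12). Ferritin-3 (LOC100253613), an iron store of plastids, and Nramp5 (LOC100266052), a metal importer, were lower, at 0.95 and 0.756 FPKM in ZP and 65.4 and 81.1 FPKM in MH and at 0 and 0.0206 FPKM in ZP and 79.4 and 81.3 FPKM in MH. Their differences were -5.32 ± 0.15 (adjusted p = 8.84e-12) and -6.33 ± 0.24 (adjusted p = 8.86e-11).

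Among defence proteins, 37 of 80 were higher and 25 lower, near the shares over all genes. A thaumatin-like protein (LOC100261232) was at 923 and 845 FPKM in the ZP libraries, against 4.45 and 1.61 FPKM in the MH libraries, a difference of 7.87 ± 0.35 (adjusted p = 3.84e-10). Ornithine decarboxylase (LOC100232922), an entry enzyme of polyamine synthesis, was at 319.6 and 302 FPKM in the ZP libraries, against 0.134 and 0.185 FPKM in the MH libraries, a difference of 8.07 ± 0.18 (adjusted p = 1.50e-12). A proline-rich protein of the DC2.15 type (LOC100267804) reached 1536 and 1698 FPKM in ZP and 8.69 and 9.24 FPKM in MH, a difference of 7.34 ± 0.35 (adjusted p = 6.71e-10). These genes were under 10 FPKM in both MH libraries and far higher in both ZP libraries.

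Some genes were expressed in 1 variety and under 1 FPKM in the other. At day 35, 182 genes were under 1 FPKM in both ZP libraries and at 10 FPKM or more in both MH libraries, and 133 genes showed the reverse. The sets behaved differently later: of the 182, 34 stayed under 1 FPKM in all 8 ZP libraries and 27 reached 10 FPKM in a later ZP library, whereas of the 133, 103 stayed under 1 FPKM in all 8 MH libraries and 1 reached 10 FPKM. In 17 genes both ZP libraries were listed at 0 with at least 10 FPKM in both MH libraries. They include gibberellin-regulated protein 11 (LOC100265557), at 21.6 and 18.4 FPKM in MH, and protein phosphatase 2C 77 (LOC100251367), of a family that dampens abscisic acid signalling, at 13.5 and 12.5 FPKM in MH. In 5 genes both MH libraries were listed at 0 with at least 10 FPKM in both ZP libraries, and 3 of these were at 0 in all 8 MH libraries. Singled out after their values were seen, they include a DMR6-like oxygenase (LOC100251364) and a 2-alkenal reductase (LOC100252695); the others are gene models of the authors without a RefSeq name.

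The day 35 differences were set against those of the later days, taken as the mean of days 45, 55 and 61 in the same fit. They differed in 9127 genes (72.2%), 2472 (19.6%) with a higher value at day 35 and 6655 (52.7%) with a lower one. Median-ratio scaling gave 4012 higher and 4856 lower, and quantile normalization 4339 and 4426, so the excess of lower values depends on the scaling. Direction was reversed, with both differences called, in 329 genes (2.60%) that were higher in ZP at day 35 and lower later and in 1156 genes (9.15%) that were lower at day 35 and higher later. These differences of differences share no library between their parts.

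Of the 222 cell division genes, 136 were lower in ZP at day 35 and 47 higher, whereas over the later days 37 were lower and 142 higher. Those later counts lie near the shares over all tested genes, of which 23.4% were called lower and 62.7% higher over days 45 to 61. In 156 division genes the day 35 value was called below the later one (123 after median-ratio scaling) and in 20 above it (37), against 52.7% below and 19.6% above over all tested genes. The median of the monolignol genes was -0.19 at day 35 and 0.56 later, against 0.24 and 0.66 over all tested genes. In 47 of 69 the day 35 value was the lower one and in 13 the higher. After scaling these counts were 35 and 14, against 4856 and 4012 of all 12637 tested genes. Laccase-4 (LOC100267265) had a difference of -1.05 at day 35 and 2.98 later, and C3H (LOC100263633) one of -1.65 and 1.15. The tests of these shifts gave -4.03 ± 0.19 (adjusted p = 1.45e-09) and -2.80 ± 0.25 (adjusted p = 4.27e-07). Late embryogenesis abundant genes shifted the other way, with a median of -0.72 at day 35 and -3.21 later, and in 19 of 29 the day 35 value was the higher one.

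Some of the widest gaps of day 35 were not those of the later days. WOX2 (LOC100263784) was at 0.173 to 1.73 FPKM in the 6 later ZP libraries and 0.0346 to 0.459 FPKM in the 6 later MH libraries, and its difference shifted by -5.66 ± 0.22 (adjusted p = 3.31e-10). ZHD4-like (LOC100250800) was at 4.08 to 20.3 FPKM in the later ZP libraries and 3.18 to 9.97 FPKM in the later MH libraries, a shift of -9.85 ± 0.20 (adjusted p = 7.80e-12). Sucrose synthase 2 (LOC100243135) was at 38.2 to 113 FPKM in the later ZP libraries, against 334 to 1055 FPKM in MH, a shift of -6.97 ± 0.30 (adjusted p = 6.95e-10). The later ranges of the varieties overlapped for WOX2 and ZHD4-like and not for the synthase. WRI1 (LOC100250488) reached 9.70 to 27.6 FPKM in later ZP libraries, and TCP8 (LOC104879624) turned from -4.11 at day 35 to 2.09 later. AED3 (LOC100252287) was at 1.30 to 29.2 FPKM in the later ZP libraries, lowest at day 61, and at 0.0538 to 0.643 FPKM in the later MH libraries. It was still called higher in ZP over the later days, by 2.46 ± 0.10 (adjusted p = 2.21e-11). Its shift was 5.78 ± 0.20 (adjusted p = 1.07e-10).

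**Figure D5:**
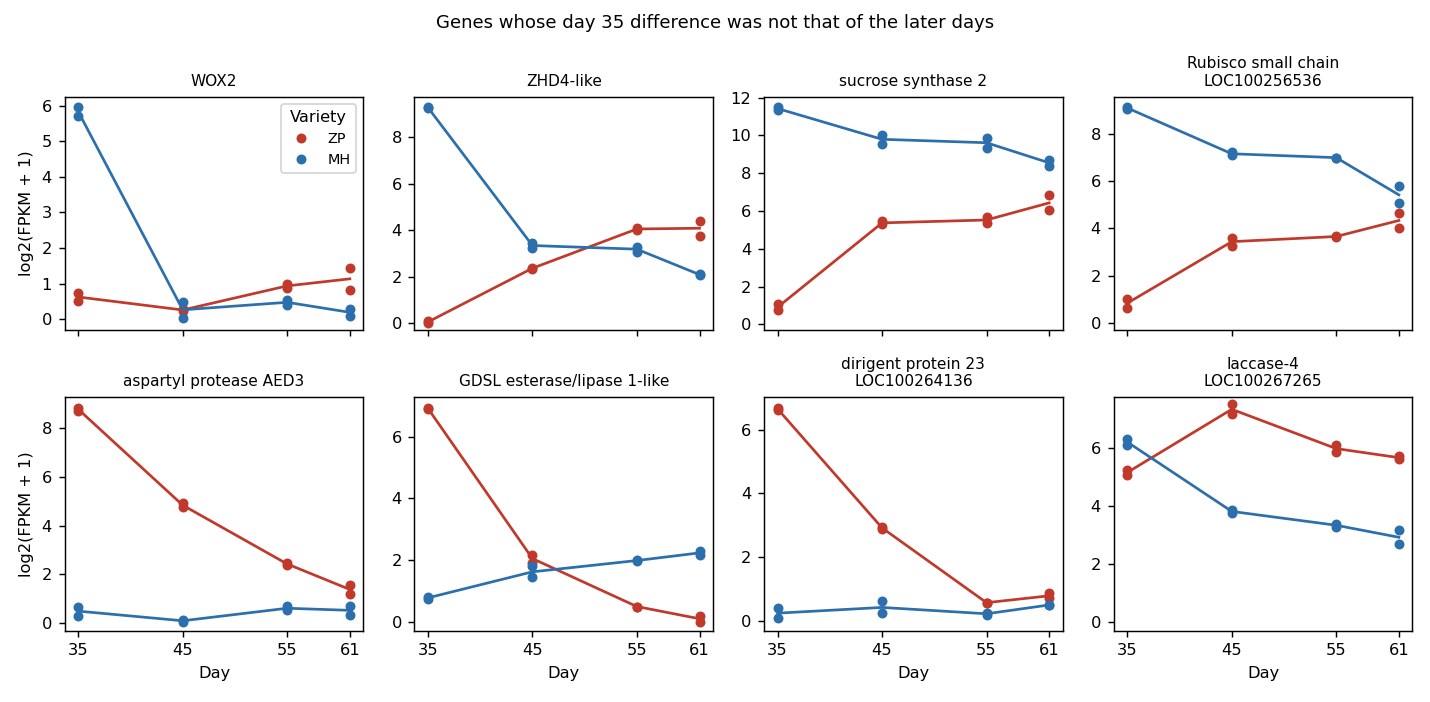
Levels of 8 genes in log2(FPKM + 1) at days 35, 45, 55 and 61, with each library a point (ZP red, MH blue) and lines through the means of a variety; the vertical scales differ between panels. WOX2, ZHD4-like, sucrose synthase 2 and the Rubisco small chain are highest in MH at day 35, AED3, the GDSL gene and the dirigent gene are highest in ZP at day 35, and laccase-4 crosses over after day 35.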

How the data were processed

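RNA of whole grape ovules was sequenced, and the labels give each library's variety and day. They do not state whether the 2 libraries of a variety and day are from different plants; p-values thus reflect only how far these libraries vary, and that variation may be technical. The values deposited by the authors are in FPKM, as the column names of the table say. The aligner, the counter, the handling of reads shared between genes and the use of strand are not given in the sources used here, so genes that overlap another gene (1138 of those tested) and near-identical families (storage proteins, oleosins, small heat shock proteins, laccases, chlorophyll-binding proteins, stilbene synthases) are uncertain. Of 13411 genes, 12540 could be named from RefSeq (assembly ASM3070453v1), and each has identical positions there.

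The filter was 1 FPKM in 2 of the 16 libraries; log2(FPKM + 1) was fitted with limma 3.58.1 in R 4.3.3, with a mean-dependent prior, 1 mean for each of the 8 groups and 8 residual degrees of freedom. P-values are two-sided and adjusted by Benjamini-Hochberg. Tables were made with Python 3.11.15, pandas 2.3.3, numpy 2.4.6 and figures with matplotlib 3.10.9. Depth was estimated from the steps between low values: 26.1% of genes had whole numbers of steps (tolerance 0.06), too few for a count test. In the self-test 200 of 12637 genes were changed in each run. Of genes changed by 0.5, 1 and 2 (log2), 13.5%, 79.5% and 98.5% were called at day 35.

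The comparison, the 31 gene lists with 94 roles (matched by words in the gene descriptions) and the rule for naming genes were chosen with earlier results of these data known. The rule takes, in each role, up to 2 genes per direction with the largest difference among called genes whose groups do not overlap and with a mean of at least 10 FPKM in ZP or MH. It adds the most abundant gene of each monolignol and oil step, the 10 largest differences per direction, the 6 largest reversals per direction against later days, the 5 most abundant genes with a 95% interval within 0.5 of 0, and cell type markers. Many were left out for length, and some monolignol genes are not reported here. Laccase-15, FAD2, peroxidase 42 and genes said to be singled out were added after their values were seen. Alternatives were the pseudocount, the filter, 3 scalings, a replicate block, leaving out each library, the day 35 libraries alone and a limit on the fold.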

Additional observations from a re-analysis of the deposited data

Results flagged for a closer look

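Results are given here where the day 35 difference between ZP and MH was not that of days 45 to 61, by limma's test of the difference between the differences, adjusted over all tested genes. This held for 9127 genes. The genes named are those of the naming rule with opposite called differences at day 35 and later. A shift is the day 35 difference minus the later one, in log2(FPKM + 1), so it is positive where ZP was relatively higher at day 35.

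Of the genes higher in ZP at day 35 and lower later, an aspartyl protease (LOC104880161) shifted most, by 8.03 ± 0.21 (adjusted p = 1.16e-11). Most of that came from the later days: its day 35 levels were 7.60 and 7.28 FPKM in ZP and 3.60 and 5.02 FPKM in MH, and its later levels 1.24 to 4.60 FPKM in ZP and 286 to 977 FPKM in MH. Its day 35 call was lost under quantile normalization (adjusted p = 0.0588), under rescaling without storage and oil body genes (adjusted p = 0.0503) and without MH replicate 1 (adjusted p = 0.0524). A second aspartyl protease (LOC100264942) shifted by 5.92 ± 0.14 (adjusted p = 8.62e-12). A GDSL esterase/lipase (LOC132254247), of a family of lipid-cleaving enzymes, shifted by 7.21 ± 0.16 (adjusted p = 7.80e-12); it was at 119 and 121 FPKM in ZP and 0.667 and 0.741 FPKM in MH at day 35, and at 0 to 3.51 FPKM in ZP and 1.71 to 3.90 FPKM in MH later. The lipid-transfer protein DIR1 (LOC100256638), a mobile defence signal in Arabidopsis, shifted by 6.48 ± 0.35 (adjusted p = 4.62e-09), from day 35 levels of 47.8 and 49.4 FPKM in ZP and 0.0874 and 0 FPKM in MH. An ACC oxidase homologue (LOC100251563) shifted by 6.24 ± 0.14 (adjusted p = 7.80e-12), and trichome birefringence-like 38 (LOC100258410), of a family that acetylates wall polymers, by 5.93 ± 0.15 (adjusted p = 1.05e-11).

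Of the genes lower in ZP at day 35 and higher later, ZHD4-like (LOC100250800) shifted by -9.85 ± 0.20 (adjusted p = 7.80e-12). A DC2.15-type proline-rich protein (LOC100253899), which overlaps another gene and is uncertain, shifted by -7.31 ± 0.18 (adjusted p = 1.05e-11). Thaumatin-like protein 1b (LOC100248638) shifted by -6.85 ± 0.31 (adjusted p = 1.04e-09), with 5.27 and 4.53 FPKM in ZP and 75.4 and 51.9 FPKM in MH at day 35 and 119 to 205 FPKM in ZP and 6.01 to 63.3 FPKM in MH later. A pathogen-related protein (LOC100259201) shifted by -6.30 ± 0.16 (adjusted p = 1.08e-11), and the class IV chitinase CHI4D by -6.22 ± 0.19 (adjusted p = 4.30e-11). A sulfite exporter family gene (LOC100252710) shifted by -6.23 ± 0.34 (adjusted p = 4.87e-09), from day 35 levels of 6.58 and 5.31 FPKM in ZP and 282 and 316 FPKM in MH.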

How the results depend on the processing

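The count of genes called at day 35 (9718) was 5573 with a filter of at least 10 FPKM in 2 libraries, which leaves fewer genes to test, and 5595 with at least a 2-fold change required. Under the other settings it lay between 8928 and 10197, with 8928 to 9151 when 1 library was left out, the lowest without ZP replicate 2. The count for day 35 against later days (9127) was 5073 with the stricter filter and 8273 to 9264 with 1 library left out. Replicate numbers do not pair the libraries: the correlations of same-numbered libraries' deviations were 0.0816, -0.0385, -0.573 and -0.11 at days 35, 45, 55 and 61. With the replicate block the counts were 9342 and 8638, and 330 of the named genes were called. Of 345 named genes, 333 were called, and 329 to 331 with 1 library left out. Of the 333, 323 kept their call and direction under all 12 settings, and 0 reversed. Most were chosen as called genes with large differences in these same data, so this stability follows in part from the choice. Besides the changes given above, calls were lost under some settings for an omega-3 desaturase (LOC100247097), cytokinin dehydrogenase 3 (LOC100242449), the jasmonate synthetase JAR1 (LOC100251627), an ABI5-like protein (LOC100243434), a ribosomal P1 protein (LOC100261912) and cellulose synthase 8 (LOC100252166), and an HCT gene (LOC100265530) was called, at 0.93, without MH replicate 1 alone; the cause was not tested. In the self-test 0.5% of changes of 0.5 (log2) between day 35 and later days were called. Only 200 of its 12637 genes were changed, far fewer than the 9127 called in the data. With so few changed genes the adjustment is stricter, so that share does not carry over to the data. Smaller shifts were called there, such as 0.32 ± 0.10 in glutelin type-D 1 (LOC100256985, adjusted p = 0.0122).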

Other observations

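The following lists are given as values, beside the 45.8% called higher, 31.1% called lower and median of 0.24 over all tested genes at day 35. Of 56 ribosomal protein genes, 11 were called higher in ZP and 17 lower, with a median difference of -0.18; 28 were not called. Of 33 genes encoded in plastids and mitochondria, 8 passed as higher in ZP and 2 as lower at day 35 (median difference 0.19), 23 were not called, and after median-ratio scaling 6 and 4 passed; in the later days 10 passed as higher and 22 as lower, against 62.7% and 23.4% of all tested genes. Whether library preparation had a part in this was not tested. Among genes of low oxygen and of alternative respiration, 9 of 15 were higher and 3 lower. The alternative oxidase AOX2, which bypasses part of the respiratory chain, was at 70.1 and 69.5 FPKM in ZP and 16.1 and 16.3 FPKM in MH, a difference of 2.04 ± 0.10 (adjusted p = 8.05e-10). An alcohol dehydrogenase-like gene (LOC100256495) was at 0.45 and 0.347 FPKM in ZP and 11.7 and 11.0 FPKM in MH, a difference of -3.14 ± 0.16 (adjusted p = 1.46e-09).

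Terpenoid genes were higher in 22 of 41 and lower in 12, with a median of 0.43, near the shares over all genes. A germacrene D synthase (LOC100260629), which makes a volatile sesquiterpene, was at 46.6 and 51.5 FPKM in ZP and 0.0712 and 0.0871 FPKM in MH, a difference of 5.53 ± 0.11 (adjusted p = 1.32e-12). The first enzyme of tocotrienol synthesis (LOC100257787), a route known from seeds, was at 0.5 and 0.378 FPKM in ZP and 25.6 and 34.2 FPKM in MH, a difference of -4.41 ± 0.26 (adjusted p = 4.97e-09). HMG-CoA reductase 1 (LOC100265082), a control step of the cytosolic precursor pathway, was at 64.6 and 62.3 FPKM in ZP and 11.7 and 9.64 FPKM in MH, a difference of 2.47 ± 0.13 (adjusted p = 1.24e-09).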
